A study of Mus musculus with 2 samples.

Results

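H3K4me1 was described at 6 genes of the T cell lineage in mouse pre-B cells, which belong to another lineage. The genes lie in 4 windows of the mouse build mm9: Cd3e, Cd3d and Cd3g share 1 window on chromosome 9 (44740000 to 44850000), and Gata3 (chromosome 2, 9680000 to 9900000), Bcl11b (chromosome 12, 109050000 to 109350000) and Tcf7 (chromosome 11, 52020000 to 52150000) have 1 each. Every called region that overlapped a window by at least 1 base was taken, whatever its length. The windows themselves were chosen with earlier results of these data known. This gave 21 of the 48130 regions in the list, 0.0436%: 3 in the Cd3 window, 5 in the Gata3 window, 1 in the Bcl11b window and 12 in the Tcf7 window. No window was empty.

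The cells were pre-B cells from bone marrow of B6 mice, 6 to 14 weeks old and of both sexes, with the genotype label RAG1-/- and a rearranged IgM transgene (RAG-/-µ+ in the labels). The 1 library of chromatin precipitated with an H3K4me1 antibody and the 1 input library, made without antibody, came from cells of this same genotype. The labels do not tell how many mice each library stands for. RAG1 deficiency blocks rearrangement of both B and T cell receptor genes, so these cells carry no receptor of their own making, and the transgene supplies the heavy chain that takes cells to the pre-B stage. With 1 library of each kind there is no spread between replicates and no test, and all comparisons below describe this 1 list of regions. The series holds no expression values, and no markers of B or T cells could be checked that way.

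CD3ε, CD3δ and CD3γ, encoded by Cd3e, Cd3d and Cd3g, are the invariant chains that carry signals from the T cell receptor. TCF-1, encoded by Tcf7, GATA3 and BCL11B are transcription factors of early T cell development: TCF-1, which Notch signals induce, and GATA3 act in early thymic progenitors, and BCL11B acts at commitment. H3K4me1, the monomethylated form of lysine 4 on histone H3, marks active enhancers and the edges of active promoters, and also enhancers that are primed but not in use, so the mark alone does not show that a gene is transcribed.

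For orientation, the promoter sequence of 1 gene per window is printed here from RefSeq on build GRCm38.p6, from 250 bases before to 50 bases after the annotated start, 5′ to 3′ in the direction of the gene. Capitals mark matches, on either strand, to 6 short motifs of factor families known in lymphocytes: the E box CAGCTG, a further E box with the letters CAGGTG, the GATA motif with the letters AGATAA, the TCF/LEF motif with the letters CTTTGAT, the RUNX motif with the letters TGTGGT, and the ETS motif with the letters AGGAAG. Coordinates in this paragraph belong to GRCm38.p6 and are not comparable with the mm9 positions of the regions.
Cd3e (chr9:45009562-45009861, minus strand): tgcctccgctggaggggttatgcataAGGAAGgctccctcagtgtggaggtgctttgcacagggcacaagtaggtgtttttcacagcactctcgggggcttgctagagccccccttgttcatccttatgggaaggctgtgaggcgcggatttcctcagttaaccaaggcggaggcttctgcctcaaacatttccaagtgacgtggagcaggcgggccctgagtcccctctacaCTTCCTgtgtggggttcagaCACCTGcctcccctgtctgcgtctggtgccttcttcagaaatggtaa
Gata3 (chr2:9878551-9878850, minus strand): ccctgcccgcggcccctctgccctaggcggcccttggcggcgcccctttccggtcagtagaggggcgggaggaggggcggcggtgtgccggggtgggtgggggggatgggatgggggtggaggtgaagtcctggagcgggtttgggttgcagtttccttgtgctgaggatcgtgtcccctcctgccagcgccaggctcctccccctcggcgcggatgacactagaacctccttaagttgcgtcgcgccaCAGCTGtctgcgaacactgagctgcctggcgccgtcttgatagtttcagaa
Bcl11b (chr12:108003365-108003664, minus strand): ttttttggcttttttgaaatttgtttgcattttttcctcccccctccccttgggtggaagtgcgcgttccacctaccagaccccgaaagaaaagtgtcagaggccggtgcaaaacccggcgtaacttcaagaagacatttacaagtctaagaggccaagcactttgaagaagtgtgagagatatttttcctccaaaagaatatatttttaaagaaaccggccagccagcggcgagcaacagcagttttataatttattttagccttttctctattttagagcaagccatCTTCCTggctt
Tcf7 (chr11:52282965-52283264, minus strand): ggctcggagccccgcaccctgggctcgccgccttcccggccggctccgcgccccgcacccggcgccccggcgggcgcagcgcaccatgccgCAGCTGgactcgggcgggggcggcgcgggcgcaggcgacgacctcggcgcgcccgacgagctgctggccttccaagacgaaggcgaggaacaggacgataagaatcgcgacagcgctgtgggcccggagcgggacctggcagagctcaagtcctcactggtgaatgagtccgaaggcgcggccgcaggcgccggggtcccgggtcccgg

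All 6 genes had an entry in the promoter table, and Tcf7 had 2 annotated starts, of which the first listed is printed. The 3 Cd3 promoters held 3 (Cd3e), 4 (Cd3d) and 4 (Cd3g) motif matches, and the promoters of Gata3, Bcl11b and Tcf7 held 1 each, at either start for Tcf7. An E box of either form was present at all genes but Bcl11b. At the first Tcf7 start, however, this match lies in sequence that reads as coding. An ATG shortly before the match opens a reading frame that runs without a stop to the end of the printed stretch. Of all 32851 promoters of this length, 32.9% held an E box of either form. Cd3d held the only TCF/LEF match, against 3.73% of all promoters, and Cd3g held the only GATA match, against 11.2%. Bcl11b, Cd3d and Cd3e held the ETS motif, which 35.4% of all promoters hold, and none of the 6 genes held the RUNX motif, which 16.8% hold. No matches overlapped each other. A match is a run of letters, not a bound site.

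The promoters also differed in CpG content. Tcf7 had 45 CpG dinucleotides in 300 bases at its first listed start and 17 at the other, and Gata3 had 22. Bcl11b had 9, Cd3e 8, Cd3g 4 and Cd3d 1, beside a median of 7 over all promoters. Both starts of Tcf7 and the start of Gata3 were thus richer in CpG than the other 4 genes. Most of the sequence at the first listed Tcf7 start reads as coding, as said above, so its 45 CpG are not those of a promoter alone. The count at the other Tcf7 start may also come from sequence inside the gene. No mm9 sequence or gene positions were used here, so no called region could be placed on a promoter, an exon or an intron of these genes. Neighbouring genes may own regions as well: in the RefSeq order of GRCm38.p6, the protein-coding neighbours are Ube4a and Mpzl2 around the Cd3 genes, Celf2 and Taf3 around Gata3, Gm52008 and Setd3 around Bcl11b, and Skp1 and Vdac1 around Tcf7.

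Per the file header, calling rested on 50945360 H3K4me1 tags; input depth is not given in the sources used here. A stretch of 500 bases needed at least 26 tags, 2.07 times the number expected of a uniform genome, and 4-fold more than input. A stretch without a region is therefore one in which nothing passed these thresholds, not one shown to lack the mark. Tag numbers per region were not used here, and regions are compared by position, number and length.

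The windows differed widely in how much H3K4me1 they carried, and Tcf7 stood highest. The Tcf7 window had 9.23 regions per 100 kb, the Cd3 window 2.73, the Gata3 window 2.27 and the Bcl11b window 0.333, beside 1.88 over the autosomes and chromosome X. Regions covered 19.5% of the Tcf7 window (25.3 of 130 kb), 7.81% of the Cd3 window (8.59 of 110 kb), 5.44% of the Gata3 window (11970 bases of 220 kb) and 0.226% of the Bcl11b window (0.677 of 300 kb). The share over the autosomes and chromosome X was 4.30%. The Tcf7, Cd3 and Gata3 windows were above that share, and the Bcl11b window was below it.

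**Figure D1:**
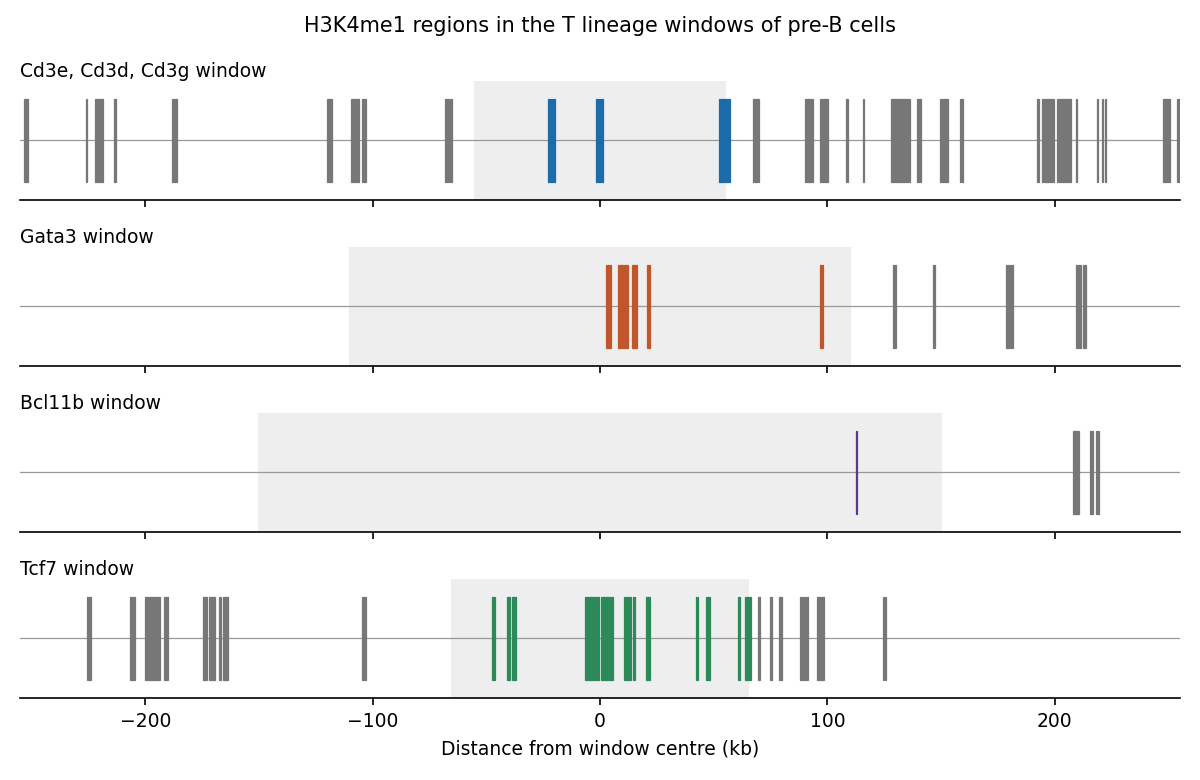
Map of called H3K4me1 regions (bars, to scale) around the 4 windows, with the distance from each window's centre in kb; grey shading is the window, coloured bars are the regions that overlap it and grey bars are the regions outside. The Tcf7 window holds 12 regions and the Cd3 window 3, Gata3's 5 regions all lie right of the window's centre, and the Bcl11b window holds 1.

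To set these counts against the genome, the autosomes and chromosome X, each from its first to its last region, were divided into adjacent tiles of each window's length. Holding a region at all was common: 47.7% of tiles of the Cd3 length, 57.6% of the Gata3 length, 61.7% of the Bcl11b length and 50% of the Tcf7 length held at least 1. That all 4 windows held one is to be read beside these shares. At least as many regions as the Tcf7 window's 12 were found in 3.55% of 19688 tiles. At least the 3 of the Cd3 window were found in 30.2% of 23270 tiles, and at least the 5 of the Gata3 window in 33.8% of 11625 tiles. At least the 1 region of the Bcl11b window was found in 61.7% of 8519 tiles.

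By covered bases the order of the windows was the same. At least as much was covered in 5.68% of tiles for Tcf7, 18.5% for Cd3, 26.2% for Gata3 and 59.0% for Bcl11b. For Tcf7 this share was 11.6% among the tiles of chromosome 11 and 11.4% among tiles that held a region. Tiles were laid without regard to genes or mappability, and 38.3% to 52.3% of them held no region. Among only those tiles that held a region, a background added after seeing the data, at least 12 regions stood in 7.09% for Tcf7, and at least 3 and 5 in 63.3% and 58.6% for Cd3 and Gata3. Chromosome 11, which carries Tcf7, is densely marked, and 6.92% of its own tiles held at least 12 regions. On these 3 backgrounds, between 3.55% and 7.09% of tiles matched or passed the Tcf7 window by number of regions. More than 30% did so for the Cd3 and Gata3 windows, whose counts were therefore common ones.

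**Figure D2:**
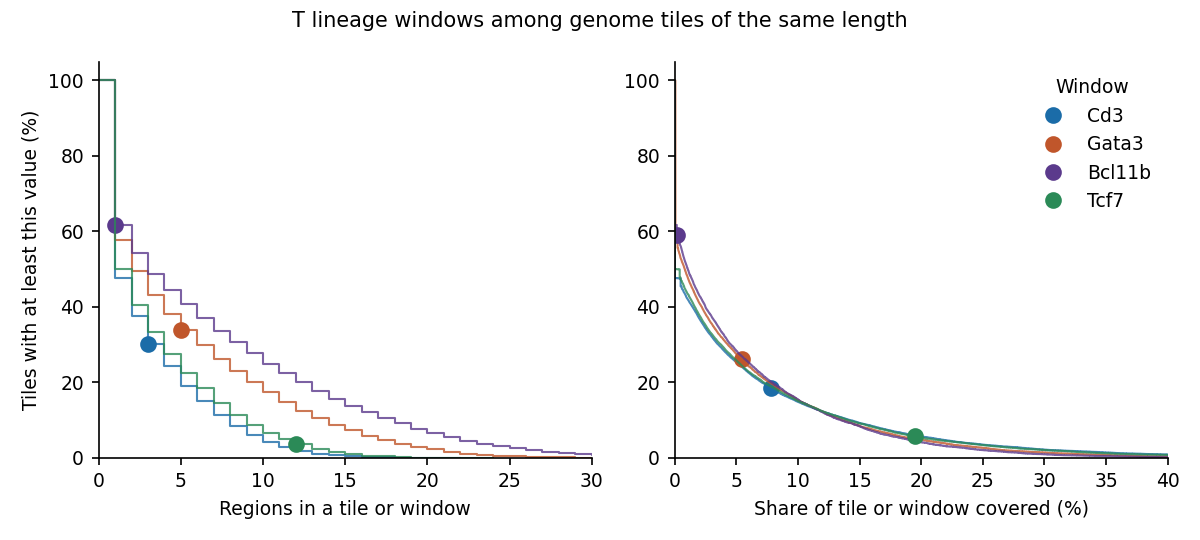
The share of tiles (%) that hold at least a given number of regions (left) or have at least a given share of bases covered (right), as 1 line per window length, over the autosomes and chromosome X; dots are the windows. Tcf7 sits far down both curves, at 3.55% and 5.68% of tiles, and Bcl11b sits near the top at 61.7% and 59.0%.

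At Tcf7, the mark formed a compact group in the middle of the window with smaller groups on each side. The longest region spanned 5994 bases, from 52078372 to 52084365, and was followed after a dip of 871 bases by one of 5367 bases, from 52085237 to 52090603. Among all regions of the list, 6.39% were at least as long as the longer of this pair and 7.83% as long as the shorter. Next came a region of 3049 bases (52095603 to 52098651), one of 626 bases (52099723 to 52100348) and one of 1684 bases (52105302 to 52106985). With gaps of up to 12.5 kb bridged, these 5 regions made a domain of 28.6 kb, 58.4% of it covered. That domain ranked 1343 of 20377 in the genome by covered bases. The remaining 7 regions of the window lay outside it.

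On the side of lower coordinates, a group of 3 regions of 1289, 1066 and 2039 bases lay between 52037498 and 52048128, 30.2 kb from the central group. The last 2 of these were 794 bases apart, the shortest gap in any of the 4 windows. On the other side, 20.3 kb from the central group, came regions of 627 bases (52127295 to 52127921), 2047 bases (52131428 to 52133474), 501 bases (52145876 to 52146376) and 2321 bases (52148941 to 52151261). The region of 501 bases has the shortest length that the caller gives. The last one crosses the window's edge with 1261 of its bases outside, and these 4 opened a domain of 10 regions that ran on to 52183398. The median gap between neighbouring regions within the window was 4.95 kb, beside 8.87 kb over the whole list.

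In the Cd3 window, the mark lay in 3 well separated regions, each longer than the list's median of 1497 bases. They spanned 2954 bases (44772164 to 44775117), 2844 bases (44793298 to 44796141) and 5166 bases (44847209 to 44852374). Only the first pair lay wholly inside the window: the longest had 2374 of its bases beyond the edge. Gaps of 18.2 kb and 51.1 kb separated the 3 regions, and no region lay within 12.5 kb of either of those wholly inside. Of all gaps in the list, 34.2% and 15.1% were at least as long as these. The nearest regions wholly outside lay 10.2 kb before and 12.2 kb after the window. The marked bases inside this window, which Cd3e, Cd3d and Cd3g share, came to 8.59 kb. How much of that lies at the Cd3 genes and how much at neighbouring genes could not be told.

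At Gata3, 4 of the 5 regions stood close together next to a very long stretch without any region. They spanned 2409 bases (9792533 to 9794941), 4200 bases (9798113 to 9802312), 2254 bases (9803872 to 9806125) and 1541 bases (9810624 to 9812164), with gaps of 3.17, 1.56 and 4.50 kb between them. The group made a domain of 19.6 kb with 53.0% covered, which ranked 2540 of 20377 by covered bases. A region of 1566 bases (9886561 to 9888126) stood alone, 74.4 kb further on. Before the group, no region was called for 2753.7 kb, from 7038803 to 9792532, of which 112.5 kb lay in the window. Only 91 of the 48108 gaps in the list were at least that long (0.189%). Assembly gaps and unmappable sequence in this stretch were not analysed here.

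At Bcl11b, the window was nearly bare. Its 1 region spanned 677 bases, from 109312458 to 109313134, and 80.6% of all regions were at least as long. The window's first 262.5 kb held no region, nor did its middle 150 kb. The stretch without a region that ended at this one was 427.4 kb long, and 1.93% of all gaps were at least that long. After it, 94.9 kb passed before the next region. A region of 677 bases is little more than 1 calling window of 500 bases, and with a minimum length of 1000 bases the Bcl11b window held none.

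All regions at Cd3 and Gata3 were longer than the list's median, while lengths at Tcf7 spread on both sides of it and the region at Bcl11b was shorter. Above that median, 1497 bases, stood 15 of the 21 regions, where 50% of all regions do: 3 of 3 at Cd3, 5 of 5 at Gata3, 7 of 12 at Tcf7 and 0 of 1 at Bcl11b. At least 2000 bases were reached by 12 of 21 regions, against 37.5% of the list. At least 5000 bases were reached by 3, against 8.92% of the list: 2 at Tcf7 and the Cd3 region that crosses the window's edge. Under 1000 bases were 3 of the 12 Tcf7 regions and the 1 at Bcl11b. The shortest length, 501 bases, was found once among the 21 regions, and in 14.3% of the list. Neighbouring regions of 1 locus are not independent of each other.

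**Figure D3:**
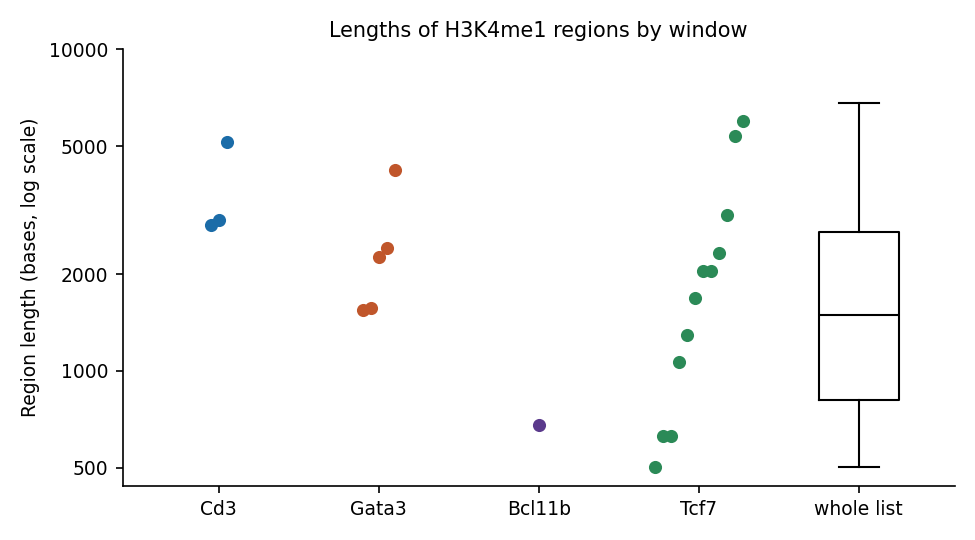
Length in bases (log scale) of each region in the 4 windows (points), with the whole list at the right as a box of the 25th, 50th and 75th percentiles and whiskers at the 5th and 95th. The Cd3 points lie between 2844 and 5166 bases, the Gata3 points between 1541 and 4200, the Bcl11b point at 677, and the Tcf7 points spread over 501 to 5994.

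Set beside its surroundings, the Tcf7 window was richer in the mark than both flanks. The Cd3 window was poorer than the flank after it, and only slightly poorer than the flank before it. Regions covered 19.5% of the Tcf7 window, against 9.70% of the same length before it and 8.72% after it. Regions covered 7.81% of the Cd3 window, against 8.81% before it and 25.4% after it. The Cd3 window's own share varied with its edges, and its flanks were not recomputed to match. Coverage was 10.5% with only the middle of the Cd3 window kept, and 11.6% with it widened by 50 kb on each side. The widened window takes in part of each flank. The share in the Cd3 window was 0.456 times that of both flanks together, and with 500 kb on each side it was 0.418 times. Those longer flanks were alike, with 17.6% covered in the 500 kb before the Cd3 window and 19.8% in the 500 kb after it. The share in the Tcf7 window was 2.12 times that of its flanks, and 2.33 times with 500 kb on each side. Its longer flanks were unlike, with 14.0% covered in the 500 kb before the Tcf7 window and 2.77% in the 500 kb after it. The stretch of the same length after the Cd3 window held 10 regions, the longest of 8357 bases, against 3 in the window. The region that crosses the edge is counted in both.

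At Gata3 and Bcl11b, the side after the window carried more of the mark than the side before it, and at Gata3 the side before it held no region. The Gata3 window had 5.44% of its bases covered, against 0% in the 220 kb before it and 6.75% in the 220 kb after it. Over 500 kb the side before it was empty as well, and the side after it held 14 regions and 5.15% of bases covered. The Bcl11b window had 0.226% covered, against 0.515% in the 300 kb before it, which also held 1 region, and 4.17% in the 300 kb after it, which held 7. Its share was 0.0966 times that of both flanks together, and 0.0960 times with 500 kb on each side. At both of these genes the regions of the window lay in its part nearer the side with more of the mark.

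**Figure D4:**
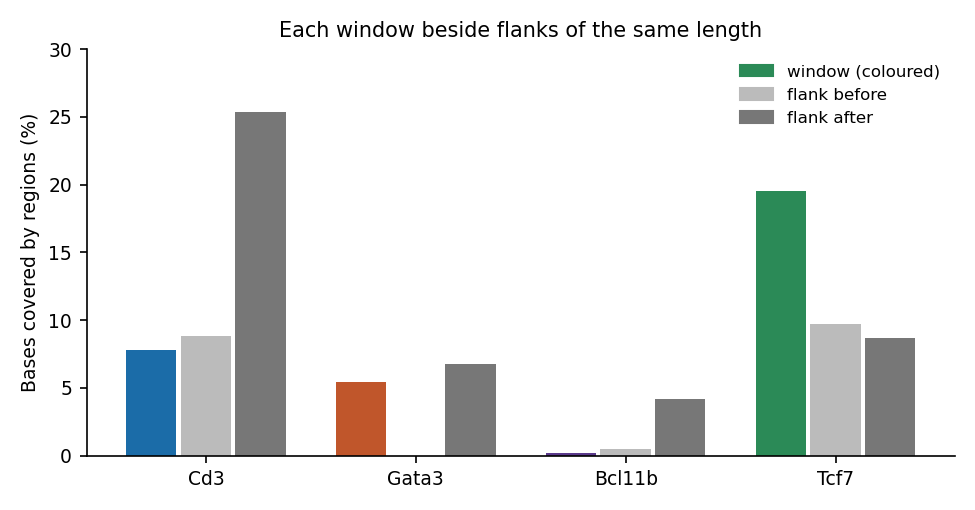
Share of bases covered by H3K4me1 regions (%) in each window (coloured, left bar) and in the stretch of the same length before it (light grey) and after it (dark grey). Tcf7 stands above both flanks (19.5% against 9.70% and 8.72%), Cd3 stands below the flank after it (7.81% against 25.4%), and Gata3 has no covered bases before it.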

How the data were processed

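Libraries from 1 to 10 ng of DNA were amplified for 18 PCR cycles and read from 1 end over 100 bases, per the labels' protocols. The tools Bowtie 0.12.9 and HOMER 4.7 and the build mm9 are named in the submitters' processing notes. The authors' regions came, per the file headers, from HOMER's findPeaks in histone style, H3K4me1 against input, from peaks of 500 bases stitched together (Poisson threshold 0.001). The deposited score is 1 in every region and was not used as a measurement. The other deposited values are start and end positions, printed here counting from 1.

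Region counts, covered bases, gaps and lengths were computed for each window and for adjacent tiles of the same length, wholly between the first and the last region of each chromosome. Chromosome Y was left out of tiles and gaps. Regions with gaps of up to 12.5 kb were bridged into domains. Tile counts and joining were tested on simulated regions. The windows, the members, the motifs and the T cell gene lists were chosen with earlier results of these data known. The rule was to name all 6 genes and every region of a window with 12 or fewer. Counts over other T and B lineage genes need mm9 gene positions and were not made. Promoters were taken from RefSeq (GRCm38.p6) by symbol. Alternatives covered the length minimum, joining, overlap, window edges, tiles and flanks. Python 3.11.15, numpy 2.4.6, pandas 2.3.3, scipy 1.17.1 and matplotlib 3.10.9 were used.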

Additional observations from a re-analysis of the deposited data

How the results depend on the processing

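Of 99 values recomputed under alternatives, 75 stayed within 1.5 times (counts, densities, lengths, ratios) or within the Wilson 95% interval (shares), and 24 moved. At a minimum length of 1000 bases the Bcl11b window held 0 regions and 0% covered bases. Widening the Cd3 window by 50 kb on each side gave 4.29 regions per 100 kb. Keeping only the middle of a window gave 3.64 regions per 100 kb and 9.46% covered at Gata3, 25.7% covered at Tcf7, and 0 and 0% at Bcl11b. Joining regions under 2500 bases apart made the longest region 8.01 kb at Gata3 and 12.2 kb at Tcf7. Among tiles of the same chromosome, at least as many regions were found in 35.4% (Cd3), 36.9% (Gata3) and 6.92% (Tcf7) of tiles, and at least as many covered bases in 21.3%, 28.5% and 11.6%. Among tiles with at least 1 region, an alternative chosen after seeing the data, the shares by regions were 63.3% (Cd3), 58.6% (Gata3), 100% (Bcl11b) and 7.09% (Tcf7), and by covered bases 38.9%, 45.4%, 95.7% and 11.4%. The Wilson intervals treat tiles, and stretches of 500 bases, as independent, which they are not. Under each setting of length, joining and window edges the Tcf7 window stayed the most and the Bcl11b window the least covered of the 4. Alternatives by score could not be run, since the score is constant, and tag depth per region, and so closeness to the calling threshold, is unknown. No paired analysis was possible because there is 1 library per group.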

Other observations

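The order of the deposited list was looked at after the data were seen. The sources used here do not say by what it was sorted. It followed region length closely but not fully (Spearman rank correlation 0.97 across all 48130 regions of the 1 library, which are not independent). In the list, the 5994-base region of Tcf7 stood at place 2482, against place 3073 by length, and the 2039-base region at place 13915, against 17613. The 2254-base region of Gata3 stood at place 23210, against 15577 by length. Leaving out the 501-base region, whose length is shared by many, 6 of 11 Tcf7 regions stood earlier in the list than by length, where 48.8% of all 41260 regions above that length did. At Cd3, Gata3 and Bcl11b 0 of 3, 0 of 5 and 0 of 1 did.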
